A study of Mus musculus with 4 samples.

Results

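The cells described here are CD4 T cells that were captured together with group 3 innate lymphoid cells (ILC3) sorted from the lamina propria of the small intestine of C57BL/6 mice aged 6 to 8 weeks. They were chosen by measured values: a cell had at least 1 count of Cd4, at least 1 count of 2 or more of the 4 T-cell receptor genes Cd3d, Cd3e, Cd3g and Trac, and no count of Cd8a, Cd8b1 or Trdc. By this gate 693 of 5054 kept cells were CD4 T cells in replicate 1 (13.7%, Wilson 95% interval 12.8 to 14.7) and 729 of 4989 in replicate 2 (14.6%, 13.7 to 15.6), or 1422 of 10043 in all. The 2 replicates were captured on BD Rhapsody in separate runs and are called run 1 and run 2. Run 1 is in reads per cell and run 2 in molecules per cell, so levels were compared within a run. No other genotype, allele or treatment was given for these mice, all cells carried the label of ILC3, and the labels do not say how many mice were pooled or whether the replicates came from separate animals. The series is about the gene Cxxc1 in these ILC3 with ageing, whose protein binds CpG-rich DNA and brings a histone methyltransferase to it, and the cells here are the young controls. Wilson intervals and limits throughout cover counting error only.

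CD4 T cells recognise peptides on MHC class II molecules through the alpha-beta T-cell receptor and direct other immune cells through secreted cytokines and membrane ligands such as CD40 ligand. Helper subsets are named for their cytokines and transcription factors: Th1 cells make interferon-gamma under T-bet, Th17 cells make interleukin-17 and interleukin-22, follicular helper cells make interleukin-21, and regulatory T cells carry Foxp3. In the gut wall they lie beside lymphoid tissue inducer (LTi) cells, innate ILC3 that also carry CD4 on their surface but have no T-cell receptor. Cd4 transcripts alone therefore do not separate the 2 kinds of cell, and the gate rests on the receptor chains.

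A typical CD4 T cell held few copies of the genes that chose it. The median Cd4 count among them was 3 reads in run 1 (quartiles 2 and 5, highest 22) and 2 molecules in run 2 (quartiles 1 and 3, highest 11). A single count of Cd4 placed 161 of the 693 cells and 274 of the 729 in the class. Of the 4 receptor genes, 228 cells had 2, 282 had 3 and 183 had 4 in run 1, and 218, 327 and 184 did so in run 2. Depth was somewhat below that of the CD8 T cells described further on (medians of 5434 reads and 2188 molecules), at medians of 4665 reads and 1060 genes in the CD4 T cells of run 1 and of 2068 molecules and 1144 genes in those of run 2. The median share of mitochondrial counts was 5.46% and 4.82%.

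Among the cells at the edges of the gate, those with Cd4 and only 1 receptor gene differed most between the runs in Il12rb2 and Il22. Cells with 1 Cd4 count and 2 receptor genes, the least that the gate admits, numbered 60 and 99, and 50% and 55.6% of them held Il12rb2 against 11.7% and 15.2% with Il22. Cells left out because they had Cd4 and only 1 receptor gene numbered 114 and 105. In run 1, 37.7% of these held Il12rb2 and 26.3% Il22, whereas in run 2 17.1% held Il12rb2 and 46.7% held Il22, the cytokine of ILC3 and Th17 cells. Another 739 and 266 cells had 2 or more receptor genes but no count of Cd4, Cd8a, Cd8b1 or Trdc, and 36.8% and 39.1% of them held Il12rb2. The gate thus leaves out cells that held receptor chains and no count of a lineage gene. A further 37 and 50 cells were left out for holding Cd4 and 2 receptor genes together with Cd8a, Cd8b1 or Trdc.

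Besides Cd4 and Trac, 3 genes had been named as markers of these cells, and they are given as a description. Cd40lg, at chromosome X:57212143-57224042 of GRCm38, encodes the CD40 ligand with which helper T cells activate B cells and dendritic cells. It was found in 32.9% of CD4 T cells in run 1 and 38.1% in run 2. Among CD8 T cells, gated in the same way on Cd8a or Cd8b1 (367 and 131 cells), the shares were 2.72% and 7.63%. Among Cd4-positive CD3-negative cells, which had Cd4 but none of the 4 receptor genes, Cd8a, Cd8b1 or Trdc (145 and 875 cells), they were 2.76% and 0.343%. Cells with neither Cd4 nor a receptor gene held it in 0.498% and 0.162%, at median depths of 5028 reads and 2448 molecules, which were above those of the CD4 T cells. Tnfrsf4, at 4:156013843-156016612, encodes the costimulatory receptor OX40 and was found in 30.9% and 27.2% of CD4 T cells against 2.72% and 2.29% of CD8 T cells. Slamf1, at 1:171767127-171801184, separated them less, with 33.0% and 28.0% of CD4 T cells against 18.3% and 16.0% of CD8 T cells.

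When every cell was thinned to 3000 reads in run 1 or 1500 molecules in run 2, leaving out 66 and 56 shallower CD4 T cells and 19 and 8 CD8 T cells, the shares with Cd40lg were 28.9% and 29.1% in CD4 T cells and 2.30% and 5.69% in CD8 T cells. Both runs kept the order. In cells with neither Cd4 nor a receptor gene, Tnfrsf4 was found in 1.30% and 0.731% and Slamf1 in 1.25% and 0.446%. The part of free RNA in the shares was not tested.

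**Figure D1:**
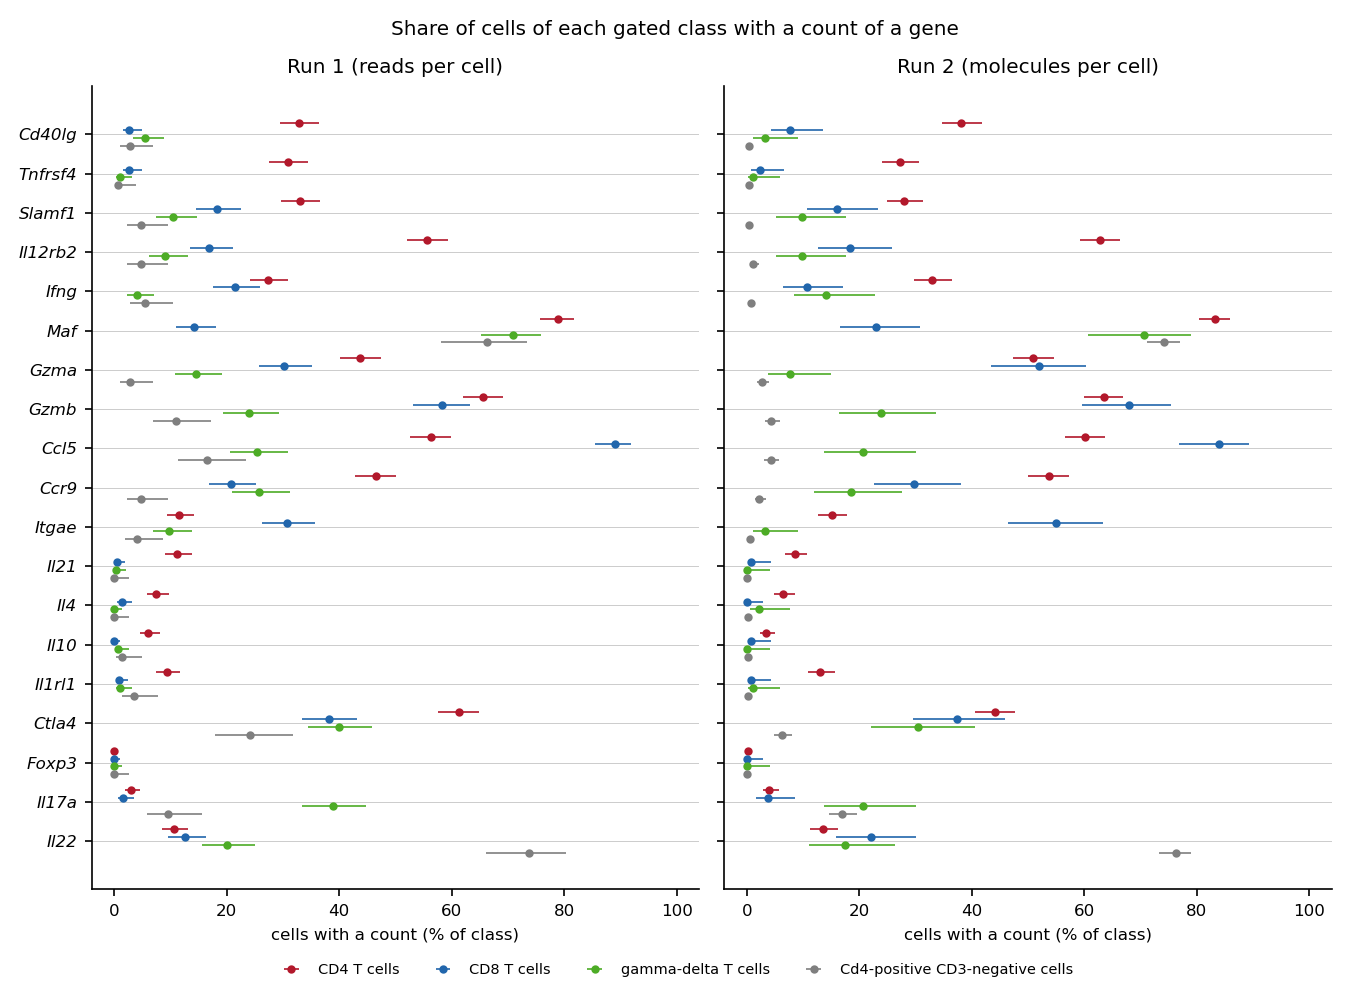
Share of cells with at least 1 count of each gene (x axis, % of the class) in the 4 gated classes, with Wilson 95% intervals, in run 1 (left, reads) and run 2 (right, molecules). Il12rb2 was found in 55.7% and 62.8% of CD4 T cells and in under 20% of the CD8 T cells of both runs, while Foxp3 was found in 1 CD4 T cell of the 2 runs.

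CD8 T cells were gated on the same receptor chains, and the comparison with them addresses what set helper cells apart from other T cells of the same sort. CD4 T cells were higher in the interleukin-12 and interleukin-18 receptor genes, in Maf, and in the helper cytokines Il21, Il4 and Il10, and lower in the chemokine Ccl5 and in killer-cell receptor genes. They did not differ by the test in granzymes or in the T-cell receptor signalling genes. Counts were summed per run and class, and the sums of 4 classes (CD4, CD8, gamma-delta T and Cd4-positive CD3-negative) were fitted together with edgeR's quasi-likelihood test, the run as a block. Levels are in CPM, the class's count scaled to a common total, and a gene was called at a Benjamini-Hochberg adjusted p under 0.05. Of 9705 genes tested, 100 were called higher in CD4 T cells and 24 lower, so 1.28% of genes were called, 1.03% as higher and 0.247% as lower. The 8 genes of the gate were not tested, and since the classes were gated on expression in the same cells, the test describes those gated classes.

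Maf encodes the transcription factor c-Maf, which drives Il10 and Il21 in helper cells. Its level was 1599 and 1826 CPM in the CD4 T cells of runs 1 and 2, against 133 and 247 CPM in CD8 T cells. The CD4 level was the higher within each run, and the log2 fold change was 3.25 (SE 0.20, edgeR adjusted p = 2.4e-06, 2 runs). A count of Maf was found in 78.9% and 83.3% of CD4 T cells and in 14.2% and 22.9% of CD8 T cells, or in 76.4% and 78.6% against 10.1% and 17.1% after thinning. Maf was frequent in other classes too: 70.9% and 70.7% of gamma-delta T cells and 66.2% and 74.2% of Cd4-positive CD3-negative cells held it.

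Il12rb2, the signalling chain of the interleukin-12 receptor, stood at 580 and 793 CPM in CD4 T cells and at 115 and 113 CPM in CD8 T cells. The CD4 level was the higher within each run, with a log2 fold change of 2.61 (SE 0.42, edgeR adjusted p = 0.0051), which DESeq2 did not call. It was found in 55.7% and 62.8% of CD4 T cells, 16.9% and 18.3% of CD8 T cells, 9.09% and 9.78% of gamma-delta T cells, and 4.83% and 1.14% of Cd4-positive CD3-negative cells. The interleukin-18 receptor chains moved the same way, Il18r1 by 2.87 (SE 0.28, adjusted p = 0.00021 in edgeR) and Il18rap by 1.83 (SE 0.23, adjusted p = 0.00086). Bhlhe40, a transcription factor that restrains Il10, was called narrowly at 0.88 (SE 0.20, edgeR adjusted p = 0.0497), and the call was lost in 7 alternatives, although the fold change stayed between 0.84 and 0.91 in them.

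Of the 9 Th1 genes tested, those 4 were higher, none was lower and 5 were not called, with a median log2 fold change of 0.88 against 0.03 over all genes tested. The 5 were Tbx21, Ifng, Cxcr3, Stat4 and Cxcr6. Tbx21, the gene for T-bet, stood at 85.9 and 66.4 CPM in CD4 T cells and 93.3 and 58.0 CPM in CD8 T cells. CD4 T cells were thus below in run 1 and above in run 2. Ifng stood at 307 and 454 CPM against 167 and 67.1 CPM. Its fold change of 1.67 (SE 0.57, edgeR adjusted p = 0.265) was not called, although 27.4% and 32.9% of CD4 T cells held a count of it against 21.5% and 10.7% of CD8 T cells (24.4% and 27.6% against 19.0% and 8.94% after thinning). The runs differed in the size of the gap, which was small in run 1.

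The helper cytokines were found in few CD4 T cells and in fewer CD8 T cells. Il21, which supports B cells and cytotoxic T cells, was found in 11.3% and 8.50% of CD4 T cells and in 0.545% and 0.763% of CD8 T cells. Its level was 81.5 and 55.5 CPM against 3.47 and 3.05 CPM, with a log2 fold change of 4.46 (SE 0.55, edgeR adjusted p = 0.00086), and the CD8 values rest on 7 reads and 1 molecule. Il4, the cytokine of Th2 and follicular helper cells, was found in 7.50% and 6.45% of CD4 T cells. The CD8 T cells held 9 reads of it in run 1 and no molecule in run 2, where the CD4 level was at least 5.69-fold higher when set against a floor of 3 counts in the CD8 sum. The fitted difference had an edgeR adjusted p of 0.028 and was not called by DESeq2. Il10, an inhibitory cytokine, was found in 6.06% and 3.43% of CD4 T cells. It had no read in CD8 T cells of run 1, where CD4 T cells were at least 39.7-fold higher against the same floor, and 1 molecule in run 2, where the ratio was 9.76 with a counting interval of 1.68 to 393 (edgeR adjusted p = 0.013).

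Of the 22 cytokine and membrane ligand genes listed, 19 were tested, and 5 were higher: Il21, Il4, Il10, Cd40lg and Tnfsf8. None was lower, and the median log2 fold change was 1.16. Cd40lg is one of the markers named beforehand, so its place in this count is a description, and DESeq2 did not call it. Tnfsf8 encodes CD30 ligand and differed by 2.71 (SE 0.30, edgeR adjusted p = 0.00042). In the follicular helper list 3 of 8 tested genes were higher, namely Il21, Il4 and Icos, and none was lower (median 1.52). Cxcr5 and Bcl6, the receptor and transcription factor that define follicular helper cells, and Pdcd1 were not called. In the Th2 list Il4 and Il1rl1 were higher and Gata3 was not called. Ccr8, Il5 and Il13 were too low to be tested. Il4 stands in the cytokine, follicular helper and Th2 lists, so these counts share it. Against all other kept cells, 8 of 21 tested cytokine and ligand genes were higher, Cd40lg among them, and 8 lower. In the follicular helper list 4 of 8 were higher, and Cxcr5 and Pdcd1 were lower. Against Cd4-positive CD3-negative cells, 6 of 19 and 4 of 8 were higher, and 8 and 3 were lower. Over all genes tested, 5.87% and 8.42% were called higher in these 2 comparisons, and 13.0% and 10.6% lower.

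Il1rl1 encodes ST2, the interleukin-33 receptor carried by ILC2, mast cells and some T cells. It was found in 9.38% and 13.0% of CD4 T cells against 0.817% and 0.763% of CD8 T cells. The level was 105 and 133 CPM against 5.46 and 3.05 CPM, a log2 fold change of 4.80 (SE 0.76, edgeR adjusted p = 0.0043). Mast-cell transcripts were checked beside it, with genes chosen after the values were seen: 5 of 693 CD4 T cells in run 1 held 2 or more of Cpa3, Ms4a2, Gata2, Tpsb2 and Cma1, and carried 8.97% of the Il1rl1 reads. Without them 8.87% of CD4 T cells held Il1rl1. In run 2 no CD4 T cell held 2 of these genes. The 6 listed ILC2 markers, which include Il1rl1 itself, summed to 2.83 and 3.90 per 10000 counts in CD4 T cells and to 0.963 and 0.984 in CD8 T cells, with no gene of the list at 0 in CD4 T cells. Among them Calca was found in 1.59% and 3.98% of CD4 T cells and was not called against CD8 T cells (edgeR adjusted p = 0.19). The part of ILC2 transcripts in the Il1rl1 result was not tested.

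Regulatory T cells were not detectable by their defining gene at this depth. Foxp3 was found in 0 of 693 CD4 T cells in run 1, which allows a share of up to 0.433%, and in 1 of 729 in run 2 (0.137%, 0.0242 to 0.773). These limits are on cells with a count, not on cells expressing the gene. Of the 12 regulatory T genes listed, 9 were tested against CD8 T cells and 4 were higher: Il10, Il2ra, Tnfrsf18 and Izumo1r (median log2 fold change 1.24). None was lower. In the sort, 2 or more of the 12 listed genes were found in 43.7% and 40.5% of CD4 T cells, 16.9% and 13.0% of CD8 T cells, 50.9% and 43.5% of gamma-delta T cells, and 42.1% and 47.5% of Cd4-positive CD3-negative cells. Tnfrsf18, the gene for GITR, differed by 1.54 (SE 0.27, edgeR adjusted p = 0.0090) and Il2ra, the high-affinity interleukin-2 receptor chain, by 1.24 (SE 0.26, adjusted p = 0.025). Il2ra turned direction against the Cd4-positive CD3-negative cells, at -2.56 (SE 0.23, edgeR adjusted p = 2.8e-06), and against all other kept cells, at -1.85 (SE 0.18, adjusted p = 0.00018), where Nrp1 was lower too. Of the listed genes, 4 of 10 tested were higher and 4 lower against all other kept cells, and 5 of 9 were higher and 2 lower against the Cd4-positive CD3-negative cells. Over all genes tested in these 2 comparisons, 5.87% and 8.42% were called higher and 13.0% and 10.6% lower. Ctla4, the inhibitory receptor, was found in 61.3% and 44.0% of CD4 T cells but also in 38.1% and 37.4% of CD8 T cells, and was not called (0.87, edgeR adjusted p = 0.62). Izumo1r had no molecule in CD8 T cells of run 2 and was not called by DESeq2.

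Other genes with the largest differences were Prr5l, a partner of the mTORC2 complex, at 5.24 (SE 0.99, edgeR adjusted p = 0.015), and Ifitm2, an interferon-induced membrane protein, at 4.91 (SE 0.61, adjusted p = 0.00080). Zbtb7b encodes ThPOK, the transcription factor that fixes the CD4 fate in the thymus. It was found in 6.06% and 10.7% of CD4 T cells and 1.91% and 1.53% of CD8 T cells, with a log2 fold change of 2.53 (SE 0.45, edgeR adjusted p = 0.0096). Among Cd4-positive CD3-negative cells 11.0% and 18.3% held it. Among 16 tested costimulation and checkpoint genes, Icos, Tnfrsf18 and Tnfrsf4 were higher, Cd160 was lower and 12 were not called (median 0.39). Tnfrsf4, and Slamf1 among those not called, are markers named beforehand, so their place in this count is a description. Icos differed by 1.20 (SE 0.23, edgeR adjusted p = 0.016) and was found in 78.2% and 85.3% of CD4 T cells.

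**Figure D2:**
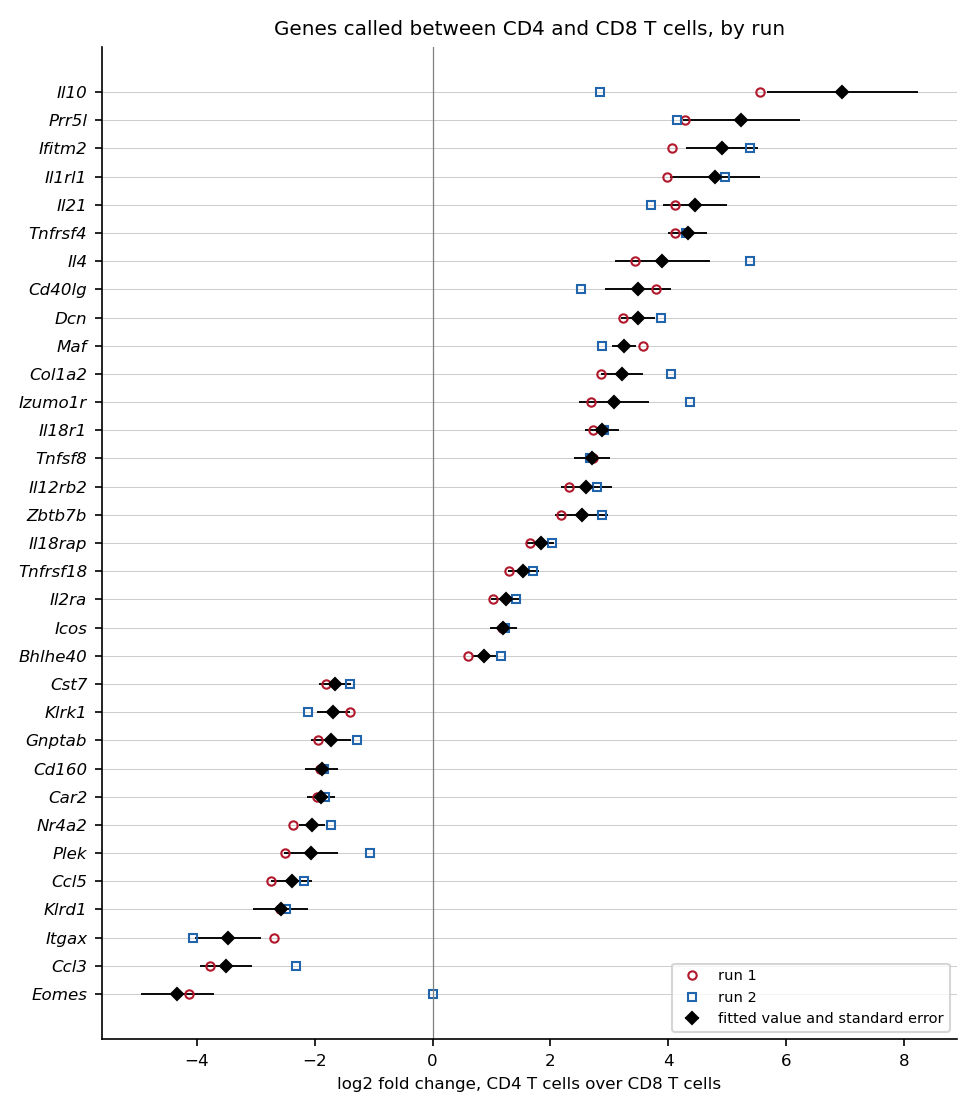
Log2 fold change of CD4 over CD8 T cells (x axis) for genes called in that comparison, with the fitted value and its standard error (black) and the value within run 1 (red circles) and run 2 (blue squares), each within-run value computed with an added prior count. Both runs lie on the same side of 0 except for Eomes, which had 0 counts in both classes of run 2, and the within-run points of Il10 in run 1 and of Il4 and Izumo1r in run 2 are set against a CD8 sum of 0.

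Of 16 cytotoxic genes tested, 5 were lower in CD4 than in CD8 T cells, none was higher and 11 were not called (median log2 fold change -1.05). The 5 were the chemokines Ccl5 and Ccl3, the NK receptor genes Klrd1 and Klrk1, and Eomes, a transcription factor of killer cells. Ccl5 stood at 1908 and 1996 CPM in CD4 T cells and at 12721 and 9027 CPM in CD8 T cells, a log2 fold change of -2.39 (SE 0.34, edgeR adjusted p = 0.0019). Klrd1, the CD94 chain, differed by -2.58 (SE 0.46, adjusted p = 0.010). Eomes rests on run 1 alone, where CD8 T cells held 279 reads, since neither class had a molecule of it in run 2.

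Granzymes were frequent in both classes, and no granzyme gene was called. Gzmb, the serine protease with which killer cells induce apoptosis, was found in 65.7% and 63.5% of CD4 T cells and 58.3% and 67.9% of CD8 T cells. Its level was 3322 and 2735 CPM against 2767 and 3774 CPM, so CD4 T cells were above in run 1 and below in run 2 (log2 fold change -0.15, SE 0.26, edgeR adjusted p = 0.96). Gzma was found in 43.7% and 50.9% of CD4 T cells and in 30.2% and 51.9% of CD8 T cells (-0.63, SE 0.28, edgeR adjusted p = 0.52). Neither p shows that the classes are alike. Among gamma-delta T cells 24.0% and 23.9% held Gzmb, and among cells with neither Cd4 nor a receptor gene 10.4% and 5.07% did.

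The genes of gut homing gave no edgeR call against CD8 T cells in 10 tested (median -0.38), although 6 had an unadjusted p under 0.05, and DESeq2 called 0. Ccr9 and Itgae came closest. Ccr9, the chemokine receptor that draws T cells to the small intestine, was found in 46.5% and 53.6% of CD4 T cells and 20.7% and 29.8% of CD8 T cells. Its log2 fold change of 1.39 (SE 0.35) had an edgeR adjusted p of 0.077, and 0.015 when the cells were thinned. Itgae encodes CD103, which binds E-cadherin of the epithelium, and was found in 11.5% and 15.1% of CD4 T cells against 30.8% and 55.0% of CD8 T cells. Its log2 fold change of -1.96 (SE 0.47) had an edgeR adjusted p of 0.069, and 0.0037 when the cells were thinned. Among genes of naive and recirculating T cells, 0 of 8 were called by edgeR or DESeq2 (median -0.74) and 5 had an unadjusted p under 0.05 in edgeR.

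Other lists gave few calls in this comparison. None of the 16 genes of the T-cell receptor complex and its early signalling was called by edgeR or DESeq2 (median 0.07, 2 with an unadjusted p under 0.05 in edgeR), and CD4 and CD8 T cells had both been gated on receptor chains. Maf was the single Th17 gene called of 10. Nr4a2 was the single immediate early gene called of 18, at -2.05 (SE 0.23, edgeR adjusted p = 0.00042), and Car2 the single ILC3 marker of 13, at -1.90 (SE 0.24, adjusted p = 0.00083). Of 6 gamma-delta markers Tcrg-C2 and Tcrg-C4 were lower, at -2.15 and -2.25 (SE 0.47 and 0.28). None of the 9 genes for CXXC1 and its SET1 complex was called by either tool (median 0.05, 1 with an unadjusted p under 0.05 in edgeR). Cxxc1 itself was found in 20.6% and 19.2% of CD4 T cells, at 113 and 98.4 CPM against 102 and 107 CPM in CD8 T cells (edgeR adjusted p = 0.99).

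Stromal transcripts moved with the CD4 class in this comparison. Of 6 tested stromal and endothelial markers, 4 were higher in CD4 than in CD8 T cells: Col1a1, Col1a2, Col3a1 and Dcn. The summed level of the 7 listed genes was 18.6 and 6.03 per 10000 counts in CD4 T cells, 3.18 and 1.28 in CD8 T cells, and 75.5 and 18.0 in all other kept cells, with Cdh5 at 0 in CD4 T cells of both runs. The counts sat in few cells: 24 of 693 CD4 T cells (3.46%) and 5 of 729 (0.686%) held 2 or more of 5 stromal genes and carried 97.8% and 94.4% of the counts of those 5 genes in the class. Without such cells in any class, 85 genes were called, 64 higher and 21 lower. Of these, 81 were among the 124 of the full fit. No stromal marker was called, an outcome largely set by leaving cells out on 5 of those genes. The part of stromal RNA in the other calls was not tested. Immunoglobulin transcripts were also uneven. In run 2, 3 CD4 T cells carried 83.3% of the summed counts of 6 B and plasma genes in the class, while Ms4a1, a defining gene of B cells, was at 0 in CD4 T cells of both runs.

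**Figure D3:**
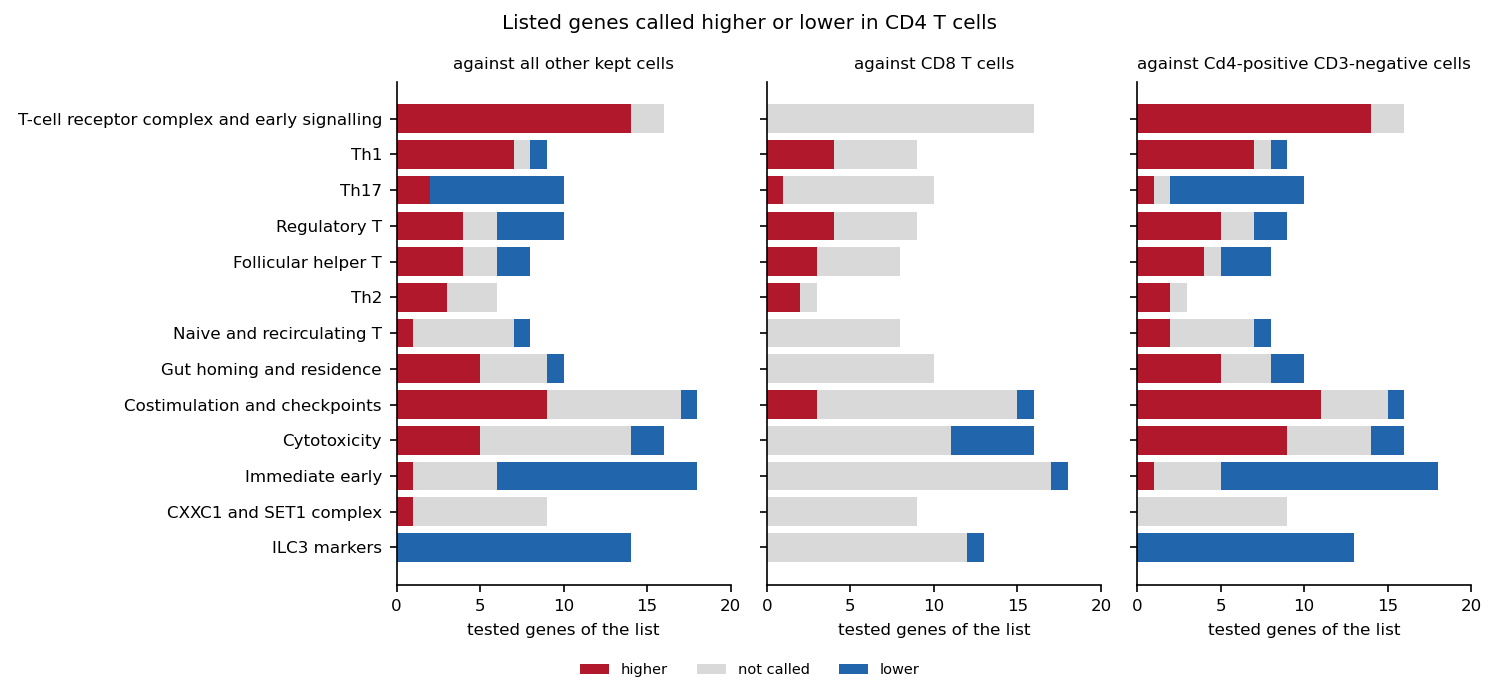
Number of tested genes of each list (x axis) that were called higher (red), called lower (blue) or not called (grey) in CD4 T cells against all other kept cells (left), CD8 T cells (middle) and Cd4-positive CD3-negative cells (right). Against the CD8 T cells 4 of 9 Th1 genes were higher and 5 of 16 cytotoxic genes lower, and against the other 2 classes 8 of 10 Th17 genes were lower. Over all genes tested, 1.03% were called higher and 0.247% lower against CD8 T cells. Called lower were 13.0% against all other kept cells and 10.6% against Cd4-positive CD3-negative cells.

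Against the Cd4-positive CD3-negative cells, which share Cd4 but lack the receptor chains, CD4 T cells were higher in 9 of 16 cytotoxic genes and 7 of 9 Th1 genes and lower in all 13 tested ILC3 markers. These cells carried the main LTi cytokine gene: 73.8% and 76.2% held Il22, against 10.7% and 13.4% of CD4 T cells. In the same edgeR fit 19.0% of the 9705 genes were called, 8.42% as higher and 10.6% as lower in CD4 T cells. The gate fixes the receptor chains in this contrast, so the higher values of 14 of 16 receptor and signalling genes are a description. The comparison shares its CD4 sums with the preceding one.

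Granzymes set these 2 kinds of Cd4-positive cell apart. Gzma stood at 1135 and 2071 CPM in CD4 T cells and at 12.6 and 17.5 CPM in Cd4-positive CD3-negative cells, a log2 fold change of 6.74 (SE 0.39, edgeR adjusted p = 1.3e-07). Gzmb differed by 5.68 (SE 0.33, adjusted p = 1.3e-07). Of 16 cytotoxic genes 9 were higher and 2 lower, the latter Ccl3 and Klrk1 (median 2.56 against 0.01 over all genes). Of 9 Th1 genes 7 were higher, among them Il12rb2 by 5.55 and Ifng by 4.96 (SE 0.51 and 0.70), and Cxcr6 was lower, at -1.10 (SE 0.18, edgeR adjusted p = 0.00062). For Il21, no count was found in the Cd4-positive CD3-negative cells of either run, and CD4 T cells were at least 21.6-fold higher in run 1 and 46.4-fold in run 2 against the floor of 3 counts.

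Th17 genes ran the other way. Of 10 tested, 8 were lower in CD4 T cells and Maf alone was higher, by 1.29 (SE 0.18, edgeR adjusted p = 0.00017), with a list median of -3.65. Il22 stood at 184 and 406 CPM in CD4 T cells against 6322 and 5585 CPM, a log2 fold change of -4.47 (SE 0.31, edgeR adjusted p = 3.8e-07). All 13 tested ILC3 markers were lower (median -3.89), as were the MHC class II genes H2-Aa, H2-Ab1, H2-Eb1 and Cd74. Tcf7, which encodes TCF-1, was lower, at -0.60 (SE 0.18, edgeR adjusted p = 0.031), while Lef1, its close relative, was higher by 2.32 (SE 0.52, adjusted p = 0.0056). Of 18 immediate early genes, 13 were lower and Dusp2 was higher (median -1.18). Cxxc1 and the other 8 genes of its complex gave no call by edgeR or DESeq2 (median 0.02, 1 with an unadjusted p under 0.05 in edgeR).

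Against all other kept cells of the sort, CD4 T cells were higher in 694 and lower in 1542 of 11828 genes by edgeR, or 18.9% called, 5.87% as higher and 13.0% as lower. This is the contrast that the gate itself draws, so its values are a description of the class. With 4 sums and the run as a block the fit had 1 residual degree of freedom of its own. Without the block, which sets reads against molecules, no gene was called and 2039 had an unadjusted p under 0.05.

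In that comparison Il12rb2 stood at 580 and 822 CPM in CD4 T cells and at 116 and 56.2 CPM in the rest, a log2 fold change of 3.08 (SE 0.33, edgeR adjusted p = 0.00029). Gzmb differed by 2.32 (SE 0.29) and Ccr9 by 1.91 (SE 0.21). Of the 9 Th1 genes 7 were higher, Tbx21 among them at 1.17 (SE 0.22, edgeR adjusted p = 0.0055), Cxcr6 was lower and Bhlhe40 was not called. Of 10 Th17 genes, Maf and Ahr were higher and 8 were lower (median -2.74), and all 14 ILC3 markers were lower (median -3.12). Itgae and Itga1, integrins of tissue residence, were called narrowly (edgeR adjusted p = 0.042 and 0.0498) and were not called when the cells with 2 stromal genes, or the 5% of cells with the highest totals, were left out. Itgae was at 1.15 in the full fit and at 1.00 and 1.03 in these, and Itga1 at 1.35 and at 1.27 and 1.32.

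Of 18 immediate early genes, 12 were lower and Dusp2 was higher (median -1.05 against -0.03 over all genes tested). Egr1 stood at 666 and 187 CPM in CD4 T cells against 1822 and 624 CPM in the rest, and Nr4a1 at 676 and 528 against 1450 and 1595 CPM. Both encode transcription factors that cells induce within minutes of stimulation. Among the called genes ranked for naming, all at or above 50 CPM in the higher class, Tff2, a trefoil factor, had the lowest value. Its level was 1.93 and 11.3 CPM against 433 and 1300 CPM (log2 fold change -7.21, SE 0.28, edgeR adjusted p = 9.4e-06). A count per cell, made after the value was seen, showed that the Tff2 counts lay in few cells: in run 1 a single cell outside the class carried 99.6% of the 10055 Tff2 counts, and in run 2 5 cells carried 82.4% of the 14585. Without the 5% of cells with the highest totals the fold change was -0.99 (edgeR adjusted p = 0.53). Rbbp5 was the single gene of 9 of the CXXC1 complex to be called, at 0.87 (SE 0.25, edgeR adjusted p = 0.037), and Cxxc1 was not (adjusted p = 0.21). Rbbp5 was not called by DESeq2 or without those 5% of cells.

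CD4 T cells varied among themselves in which cytokines they held. Of 12 cytokine genes, none was detected in 288 cells (41.6%) of run 1 and 339 (46.5%) of run 2. A single one was detected in 260 and 243 cells, 2 in 107 and 97, 3 in 32 and 34, and 4 or more in 6 and 16. Interleukin-17 was rare, with Il17a in 3.03% and 3.98% of CD4 T cells, against 38.9% and 20.7% of gamma-delta T cells. ILC3 markers were present in a minority: 12.3% and 13.2% of CD4 T cells held 2 or more of the 14, or 8.61% and 9.36% after thinning. Their summed level was 5.41 and 10.1 per 10000 counts, against 99.7 and 114 in Cd4-positive CD3-negative cells. The part that doublets or free RNA took in this was not tested.

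Ifng, Il12rb2 and Gzmb were found in a larger share of the cells with Il21 than of the others. In run 1, 50% of the 78 CD4 T cells with Il21 held Ifng, against 24.6% of the 615 without. In run 2 the shares were 61.3% of 62 and 30.3% of 667. Il12rb2 was found in 79.5% against 52.7% in run 1 and 90.3% against 60.3% in run 2, and Gzmb in 82.1% against 63.6% and 82.3% against 61.8%. The order was the same in both runs for each of these genes. Ccr9 (67.9% against 43.7%, and 77.4% against 51.4%) and Tnfrsf4 (51.3% against 28.3%, and 51.6% against 24.9%) also had the larger share among cells with Il21, and Tcf7, a gene of less differentiated T cells, the smaller share (29.5% against 41.6%, and 29.0% against 50.1%). Cd40lg differed little, at 34.6% against 32.7% and 45.2% against 37.5%. The Th1 genes Tbx21 (19.2% against 15.4%) and Cxcr3 (14.1% against 11.4%) also differed little in run 1. Il4 (20.5% against 5.85%) and the cycling gene Mki67 (23.1% against 11.5%) had the larger share among cells with Il21 in that run.

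Depth did not separate these cells by much, with medians of 4824.5 against 4626 reads and 2075.5 against 2067 molecules. After thinning, Ifng was found in 44.3% against 22.3% and in 55.0% against 25.9%. In the thinned cells of run 1, Il12rb2 was found in 63.9% (51.4 to 74.8) against 48.4% (44.3 to 52.5), so the intervals overlapped. Il4 was found there in 13.1% (6.80 to 23.8) against 5.83% (4.18 to 8.07) and Mki67 in 18.0% against 9.36%. Cd40lg was found in 21.3% (12.9 to 33.1) against 29.7% (26.1 to 33.6), the reverse of its order before thinning. Cells of 1 run share its library, so these shares describe the captured cells and were not tested. Cells with Ifng, 190 and 240 in number, held Gzmb in 80.5% and 75.8% against 60.0% and 57.5% of those without.

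The few cells with Il17a had another pattern. They numbered 21 and 29, and 4.76% and 17.2% of them held Ifng, against 28.1% and 33.6% of the cells without. Gzmb was found in 23.8% and 31.0% of them against 67.0% and 64.9%, and Il22 in 23.8% and 34.5% against 10.3% and 12.6%. Il12rb2 was found in 4.76% against 57.3% in run 1 and in 41.4% against 63.7% in run 2, so the gap was wider in run 1. The intervals on 21 and 29 cells are broad.

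**Figure D4:**
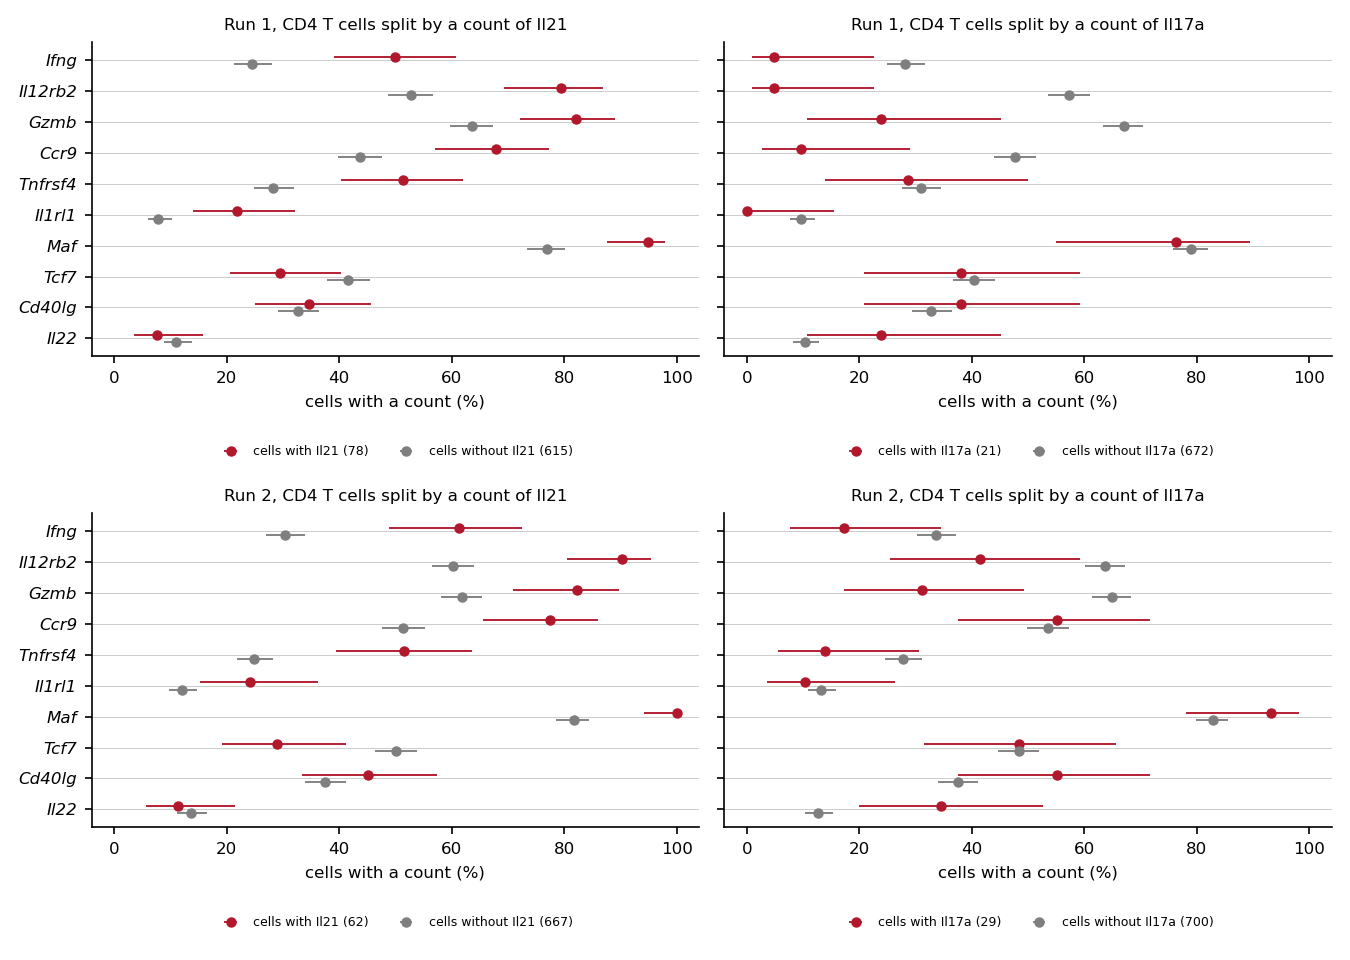
Share of CD4 T cells with a count of each listed gene (x axis, %) among cells with and without Il21 (left) and with and without Il17a (right), in run 1 (top) and run 2 (bottom), with Wilson 95% intervals and the number of cells in brackets. Ifng was found in 50% and 61.3% of cells with Il21 against 24.6% and 30.3% of the others, and in 4.76% and 17.2% of cells with Il17a against 28.1% and 33.6%.

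Receptor variable segments were read in few cells. A beta-chain segment (Trbv) was found in 74 CD4 T cells of run 1 (10.7%) and 92 of run 2 (12.6%), against 0.727% and 1.09% of gamma-delta T cells. These cells used 14 and 15 different segments. Trbv12-2 was the most frequent in run 1, in 19 cells against 12 in run 2, and Trbv2 in run 2, in 29 cells against 10 in run 1. Alpha-chain segments (Trav) were found in 25 and 42 cells. Trgv2, a gamma-chain segment, was found in 1.73% and 7.96% of CD4 T cells, 8.99% and 20.6% of CD8 T cells, and 0% and 0.229% of Cd4-positive CD3-negative cells. Some segments are near-identical to others, so reads may have been split between them, and the counts of single segments are uncertain.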

How the data were processed

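Per the file headers, the deposited counts per gene and cell are in reads for run 1 and molecules for run 2, made by the authors with versions 1.8 and 1.9.1 of the BD WTA Multiplex Rhapsody pipeline. Per the submitters' processing notes, the build was mm10 (GRCm38.p6), with HISAT2 2.0.5 and Bowtie2. Which antibodies were used to sort was not given in the sources used here. The authors' tag calls chose the cells: tag 12 in run 2, and tag 8 in run 1, where the sample labels name tag 4 but 0 cells were called tag 4. Tagged cells numbered 5302 and 5010. Cells called multiplets (815 and 1997) or undetermined (1450 and 239) over all tags were left out, and no caller was run for doublets within a tag. Cells with at least 300 genes and under 20% mitochondrial counts were kept. The runs shared 33 cell indices, which label cells within a run only.

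Counts were summed per run and class and tested on 19380 genes present in both tables with edgeR 4.0.16 (R 4.3.3; TMM factors, filterByExpr, run as a block), after the script had been tested on simulated data. Same-run sums deviated together (correlations 0.21 to 0.43), and the run also sets the unit. With no statement that the replicates were separate animals, p-values reflect the spread among these sums alone, which may be technical. Wilson intervals came from statsmodels 0.14.6 and figures from matplotlib 3.10.9. DESeq2 1.42.0 was an alternative. Genes are named from fixed lists and by a ranking. The ranking took the 10 largest and 10 smallest fold changes called with the same sign in both runs. It required at least 50 CPM in the higher class. Ribosomal protein, mitochondrial, Gm and Rik names and T-cell receptor and immunoglobulin genes were left out of it. T-cell receptor variable segments are described by shares. Co-detection pairs were chosen after seeing the data. The members and lists were chosen with earlier results of these data known. A few listed genes are not reported here.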

Additional observations from a re-analysis of the deposited data

How the results depend on the processing

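Without the replicate block, the genes called were 0 for CD4 T cells against all other kept cells (2236 with it), 8 against CD8 T cells (124) and 844 against Cd4-positive CD3-negative cells (1847). That fit sets reads beside molecules. Against all other kept cells, DESeq2 called 1376 and leaving out the 5% of cells with the highest total left 1206. Against CD8 T cells, 316 genes were called with no filter on low counts. There, 80.6% of calls were higher in CD4 T cells, and 71.1% with thinned cells. The counts of calls under the remaining alternatives stayed within 1.5 times. The share of kept cells in the class was 9.20% and 10.2% (runs 1 and 2) when 3 receptor genes were required, 10.5% and 9.12% with at least 2 counts of Cd4, and 12.0% and 11.7% after thinning. No called fold change of a named gene reversed in any alternative. Against CD8 T cells, DESeq2 did not call Il12rb2, Bhlhe40, Il4, Izumo1r, Eomes, Plek or Cd40lg, and with no filter on low counts Ifng, Gzma, Ccr9, Itgae and Ctla4 were called. With 1 run left out no test remained, and each called fold change of a named gene kept its sign in the other run, except that Eomes had no counts in run 2. In size, 12 (without run 1) and 5 (without run 2) of 41 fold changes against CD8 T cells, 7 and 5 of 22 against Cd4-positive CD3-negative cells and 0 of 26 against all other kept cells moved by more than the spread between runs. Leaving out cells with 2 stromal genes was chosen after seeing the data. The comparison of Foxp3-positive with Foxp3-negative cells was not run, since 1 such cell was found.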
